A study of Mus musculus with 8 samples.

Results

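Polyamine synthesis was followed through 8 genes in B cells on their way to the germinal center: the enzymes Odc1, Amd1, Srm and Sms, the antizymes Oaz1 and Oaz2, the antizyme inhibitor Azin1 and the acetyltransferase Sat1. They were found by symbol among the 24259 genes of the count table. All 8 were present, and all 8 passed the filter on low counts that left 12744 genes for testing. The list was drawn up with the comparison of the groups in these same libraries already known. Its genes were chosen by their place in the pathway, with their levels and fold changes in the 4 HET and 4 WT libraries in view and no stated threshold. The group differences of the 8 genes are therefore given as a description. They were part of the fit over all genes, from which only the number called is given, beside the same share over all genes, and no call is read as evidence for them.

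The libraries were made from lymph node B cells sorted as NP+IgDlowB220+, from mice labelled C57BL/6, collected on day 3 of the response to NP-OVA, the hapten NP on ovalbumin. Both groups shared the host, a CD45.1 Sap-/- mouse whose own T cells lack the adaptor SAP and cannot help germinal center B cells, and both received OT-II T cells (ovalbumin-specific) before immunization with LPS and alum as adjuvant. The HET group (4 libraries) received CD4-CrexBcl6fl/+ OT-II T cells, in which Cre driven by the Cd4 promoter removes 1 allele of Bcl6. The WT group (4 libraries) received CD4-Cre OT-II T cells. The sequenced B cells were the host's and carried no Bcl6 deletion, so no targeted gene could check the labels. The age of the animals was not given in the sources used here. Recipients of a group were pooled before about 200 cells were sorted for each library. The spread between libraries of a group is therefore technical, and a difference between groups cannot be told apart from a difference between pools.

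Polyamines (putrescine, spermidine and spermine) are small positively charged molecules that bind nucleic acids and are needed for translation and for cell division. Ornithine decarboxylase, encoded by Odc1, makes putrescine and is usually the limiting step. Amd1 supplies the aminopropyl group, Srm then makes spermidine and Sms makes spermine. Antizymes bind the decarboxylase and send it to the proteasome, the antizyme inhibitor holds antizymes back, and Sat1 acetylates spermidine and spermine for export or breakdown. In lymphocytes the pathway is switched on with growth after activation, and Odc1 is a well-known target of the transcription factor MYC. Much of this control acts on translation and protein turnover, which read counts do not measure.

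Depth and cell identity were examined first. Total counts ranged from 6652386 to 12559189 per library, so that 3 reads corresponded to 0.241 to 0.455 CPM (read counts per 1000000 reads of the library, scaled between libraries by the TMM method). The 8 genes together took 0.145% to 0.176% of the reads of a library. All 6 B cell markers examined were read in every library. Their summed level was 19900 to 21230 CPM in HET and 22920 to 25200 CPM in WT, ranges that did not overlap. Cd74 gave the largest part of that sum, at a mean of 11200 CPM in HET and 14140 CPM in WT. All 6 had a fitted log2 fold change below 0 (median -0.21, with -0.34 for Cd74). In the edgeR fit described below 0 of the 6 were called, beside 0.0235% of all genes tested. At an unadjusted p under 0.05 in edgeR 5 passed, all with HET lower, beside 3.88% of all genes tested. DESeq2 called 1 (Cd74), beside 0.656%. The groups did not overlap in 3 of the 6, beside 4.61% of all genes tested. T cell markers summed to 225 to 387.8 CPM in HET and 130 to 311.7 CPM in WT, with 6 of 7 read in every library and Cd4 at 0 in 5 libraries. All 6 that could be tested had a fitted log2 fold change above 0 (median 0.50), beside 49.9% of all genes tested. At an unadjusted p under 0.05 in edgeR 0 of these 6 passed, beside 7.22%. Myeloid markers summed to 25.02 to 108.3 CPM in HET and 32.78 to 463 CPM in WT, with 4 of 7 read in every library, and the highest value was that of WT replicate 2, whose Lyz2 level was 398.9 CPM. In such bulk samples, fewer cells of a type and less RNA per cell cannot be told apart.

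To show where transcription of these genes begins, the stretch just upstream of the annotated start was taken from RefSeq (GRCm38.p6) for 3 members. These were Odc1, whose groups did not overlap, Oaz1, the most abundant member, and Sms, the only searched member with an E-box in its upstream window. RefSeq windows were matched for 6 of the 8 members, Sms with 2 start sites, and not for Azin1 and Srm. Each sequence is printed 5′ to 3′ on the strand of the gene and stops before the first annotated transcript start. Capitals mark matches to 3 motifs, each searched on both strands. The E-box was CACGTG, which MYC and its partner can bind. The GC box was GGGCGG, so that a match on the other strand reads as its reverse complement. The TATA box was TATAAA. No match overlapped another. The Odc1 stretch lies at chr12:17544623-17544793 (plus strand), that of Oaz1 at chr10:80826406-80826655 (plus strand) and that of Sms at chrX:157492288-157492537 (minus strand).
Odc1: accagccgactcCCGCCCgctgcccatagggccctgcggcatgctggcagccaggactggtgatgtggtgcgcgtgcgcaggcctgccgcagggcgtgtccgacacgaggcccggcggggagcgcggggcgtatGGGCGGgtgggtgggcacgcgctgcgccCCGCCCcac
Oaz1: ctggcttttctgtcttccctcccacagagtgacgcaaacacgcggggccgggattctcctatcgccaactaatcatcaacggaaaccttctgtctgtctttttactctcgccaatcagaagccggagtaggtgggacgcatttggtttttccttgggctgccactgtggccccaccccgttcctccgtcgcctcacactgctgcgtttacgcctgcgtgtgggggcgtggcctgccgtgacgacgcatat
Sms: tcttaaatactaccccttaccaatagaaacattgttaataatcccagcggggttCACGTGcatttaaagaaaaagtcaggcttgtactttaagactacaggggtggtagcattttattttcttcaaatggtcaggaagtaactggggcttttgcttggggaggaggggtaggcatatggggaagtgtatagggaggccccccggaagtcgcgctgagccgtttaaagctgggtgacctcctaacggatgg
The printed Odc1 stretch of 171 bases held 3 GC boxes and was 77.2% G and C. The Oaz1 stretch of 250 bases held none of these motifs and was 58.0% G and C, and the Sms stretch held 1 E-box. Over the 250 bases upstream of each start, a GC box was found in 5 of the 7 windows of members (Oaz2, Amd1, Odc1, Sat1 and the second start of Sms) and in 32.7% of all 32851 windows. An E-box was found in 1 of the 7 windows and in 6.02% of all windows. A TATA box was found in 0 of the 7 windows and in 12.4% of all windows. Azin1, Srm and all bases outside these upstream windows, introns included, were not searched. Such matches describe the letters only.

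Of the enzymes, Odc1 was the member that separated the groups. Odc1 (chromosome 12, 17544794 to 17551505 on GRCm38, plus strand, 12 exons in its longest coding transcript) was read at 78.3, 132.1, 100.8 and 106.2 CPM in HET replicates 1 to 4 and at 42.6, 74.7, 42.8 and 54.2 CPM in WT replicates 1 to 4. Every HET library lay above every WT library, with HET replicate 1 and WT replicate 2 closest to each other. The means were 104.4 ± 22.1 CPM for HET against 53.55 ± 15.1 CPM for WT (SD, n = 4 each), a fitted difference of 1.95-fold (log2 fold change 0.96, SE 0.20). These values rest on 673 to 1020 reads in HET and 339 to 735 reads in WT.

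Srm, spermidine synthase, came next in size. Srm (chromosome 4, 148591503 to 148594993, plus strand) was read at 173.1, 211.0, 263.5 and 276.5 CPM in HET replicates 1 to 4 and at 134.4, 227.9, 131.8 and 132.6 CPM in WT replicates 1 to 4. The groups overlapped through WT replicate 2 alone, since the other WT libraries lay below all HET libraries. The means were 231 ± 47.9 CPM for HET against 157 ± 47.5 CPM for WT (SD, n = 4 each), a log2 fold change of 0.56 ± 0.19 (SE). Without WT replicate 2 the log2 fold change was 0.80 ± 0.16 (SE).

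Amd1 and Sms, which complete the synthetic branch, overlapped between the groups. Amd1 (chromosome 10, 40287458 to 40302186, minus strand) was read at 49.1, 41.6, 61.6 and 74.3 CPM in HET and at 45.0, 63.6, 40.9 and 48.8 CPM in WT, in the order of the replicates. Its log2 fold change was 0.19 ± 0.21 (SE), and leaving out single libraries moved it from 0.0373 (HET replicate 4) to 0.335 (WT replicate 2), with 0.319 for HET replicate 2 and 0.117 for WT replicate 3. Sms, spermine synthase (chromosome X, 157443855 to 157492287, minus strand), was read at 86.1, 113.0, 105.6 and 90.5 CPM in HET and at 87.4, 97.6, 89.0 and 64.9 CPM in WT. Its log2 fold change was 0.22 ± 0.15 (SE), and it ran from 0.113 without WT replicate 4 to 0.297 without WT replicate 2. In both genes most libraries of the groups shared a range, and the highest library was from HET and the lowest from WT.

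**Figure D1:**
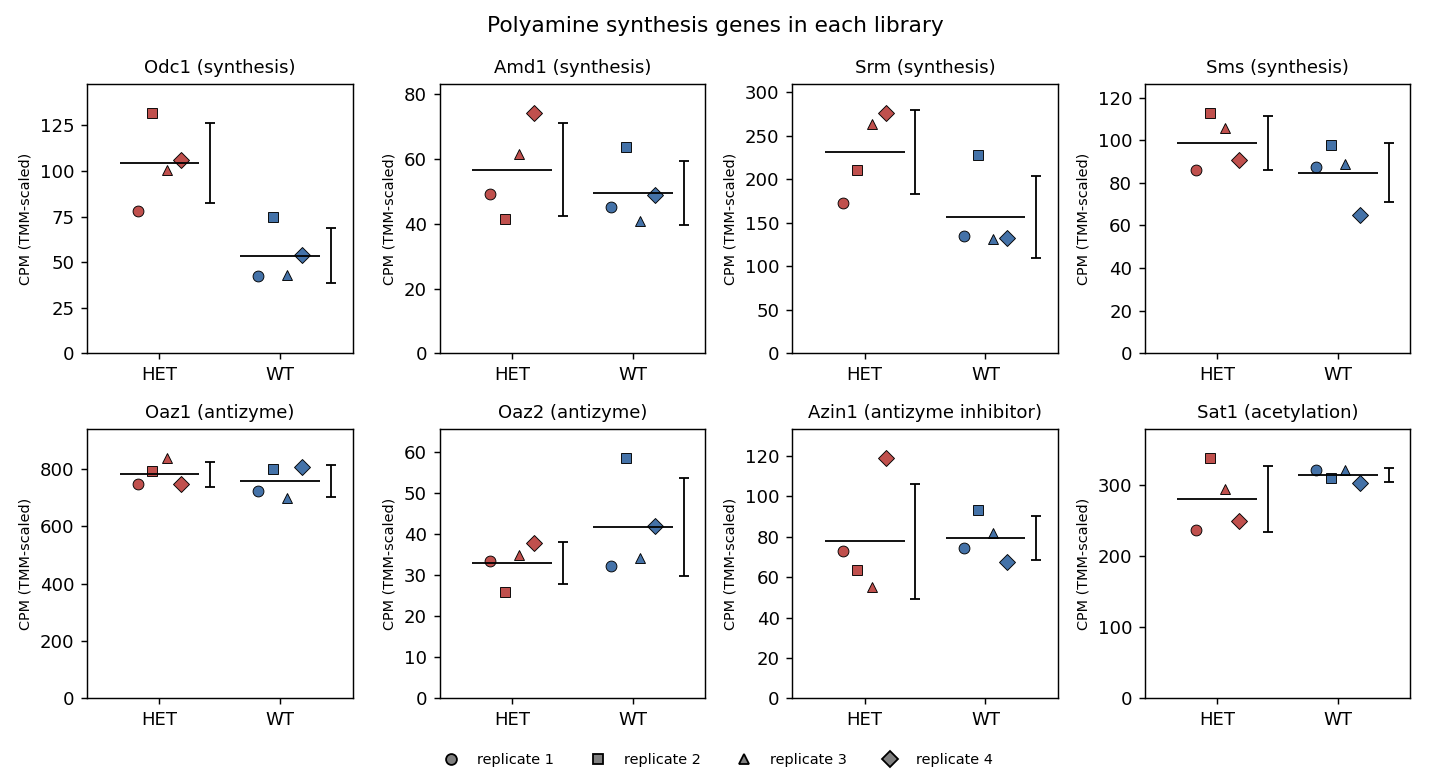
CPM of each of the 8 genes (vertical axes, starting at 0, TMM-scaled) in the 4 HET and 4 WT libraries; symbols mark the replicate number, the horizontal line the mean and the bar the SD. The 4 HET libraries of Odc1 sit between 78.3 and 132.1 CPM, above the 4 WT libraries at 42.6 to 74.7 CPM, and in the other 7 genes the groups overlap.

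The antizymes overlapped between the groups. Oaz1 (chromosome 10, 80826656 to 80829290, plus strand) encodes the main antizyme, whose full protein needs a ribosomal frameshift that polyamines favour. Oaz1 was read at 745.8, 790.7, 838.1 and 746.9 CPM in HET and at 722.7, 799.1, 696.6 and 806.2 CPM in WT. The means were 780.4 ± 43.8 CPM for HET against 756 ± 54.8 CPM for WT (SD, n = 4 each), and the log2 fold change was 0.05 ± 0.08 (SE), whose sign changed on the TPM scale (-0.00311). With single libraries left out it ran from 0.0122 (HET replicate 3) to 0.0779 (WT replicate 4). The highest and lowest of the 8 libraries differed by 1.20-fold, the smallest such ratio among the 8 genes, against 3.10-fold for Odc1.

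Oaz2, a second antizyme (chromosome 9, 65668001 to 65690300, plus strand), was read at 33.6, 25.9, 35.1 and 37.9 CPM in HET and at 32.4, 58.7, 34.2 and 42.2 CPM in WT. WT replicate 2 was again the highest WT library and HET replicate 2 the lowest of all, and the ranges of the groups overlapped. The log2 fold change was -0.34 ± 0.23 (SE), and it ran from -0.447 without WT replicate 1 to -0.13 without WT replicate 2. Azin1, a relative of ornithine decarboxylase without enzyme activity that binds antizymes (chromosome 15, 38487427 to 38519266, minus strand), was read at 72.7, 63.6, 55.3 and 119.0 CPM in HET and at 74.4, 93.0, 81.7 and 67.4 CPM in WT. HET replicate 4 was the highest of all libraries and HET replicates 2 and 3 were the lowest, so that the WT libraries lay inside the HET range. The log2 fold change of Azin1 was -0.03 ± 0.21 (SE), and it ran from -0.30 without HET replicate 4 to 0.11 without HET replicate 3. An antisense gene that overlaps Azin1, Gm49077, held 29 to 129 reads in HET and 71 to 110 reads in WT. The strand setting of the counting was not stated, so reads of this pair may be mixed.

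Sat1, the breakdown side of the pathway (chromosome X, 155213132 to 155216449, minus strand), was read at 236.7, 338.0, 294.7 and 249.0 CPM in HET and at 321.0, 309.6, 321.2 and 301.9 CPM in WT. The values of HET replicates 1, 3 and 4 lay below every WT library, and that of HET replicate 2 lay above every WT library. The means were 280 ± 46.2 CPM for HET against 313 ± 9.42 CPM for WT (SD, n = 4 each), with a log2 fold change of -0.165 ± 0.11 (SE). It was -0.088 without HET replicate 1 and -0.264 without HET replicate 2. The coefficient of variation was 16.5% in HET and 3.0% in WT.

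As a whole, 5 of the 8 genes had a fitted log2 fold change above 0, beside 49.9% of all genes tested. Their median was 0.12, beside -0.0014 over all genes tested. In edgeR's quasi-likelihood test with Benjamini-Hochberg adjustment over all genes, 0 of the 8 were called at an adjusted p of 0.05. The background was 0.0235% of genes called, which is 3 genes, all lower in HET (Fos, Jun and Ppp1r15a, named after the result was seen). At an unadjusted p under 0.05 in edgeR, 2 of the 8 passed (Odc1 and Srm, both with the higher mean in HET), beside 7.22% of all genes tested and 3.34% called with HET higher. DESeq2 called 1 of the 8 at an adjusted p of 0.05 (Odc1), beside 0.656% of the 11741 genes with an adjusted p in that tool. The groups did not overlap in 1 of the 8 (Odc1, with HET above), beside 4.61% of all genes tested and 1.99% with HET above. Since the list was made with this comparison known, nothing is read from these counts.

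**Figure D2:**
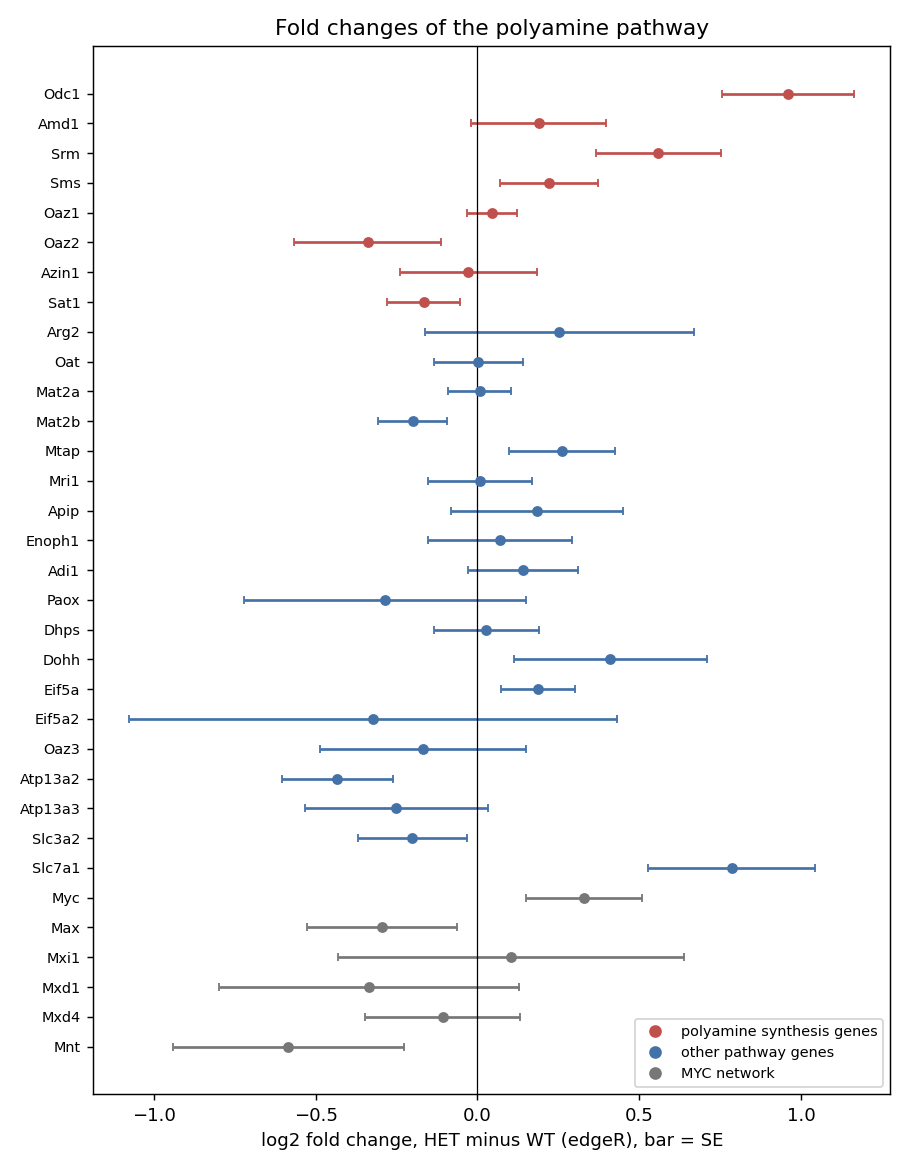
Fitted log2 fold change, HET minus WT (horizontal axis), with its SE for the 8 polyamine synthesis genes, the 19 other pathway genes that could be tested and the 6 tested genes of the MYC network. Odc1 has the largest positive value (0.96), followed by the transporter Slc7a1 (0.79) and by Srm (0.56).

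Reads of 2 genes were next set against each other within a library, a measure that does not depend on how libraries are scaled. Per 100 reads of Oaz1 there were 10.5, 16.7, 12 and 14.2 reads of Odc1 in HET replicates 1 to 4 and 5.89, 9.35, 6.14 and 6.72 in WT replicates 1 to 4. The ranges of the groups did not overlap. The means were 13.4 ± 2.70 for HET against 7.02 ± 1.59 for WT (SD, n = 4 each). Per 100 reads of Azin1, Odc1 had 89.2 to 208 reads in HET and 52.4 to 80.3 reads in WT, which again did not overlap. Both ratios restate the difference in Odc1.

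The balance between the other branches overlapped between the groups. Per 100 reads of Srm, Sat1 had 137, 160, 112 and 90.1 reads in HET and 239, 136, 244 and 228 reads in WT. WT replicate 2 lay inside the HET range and the other WT libraries lay above it. Sms had 32.7 to 53.5 reads per 100 reads of Srm in HET and 42.8 to 67.5 in WT. Oaz2 had 3.28 to 5.08 reads per 100 reads of Oaz1 in HET and 4.48 to 7.35 in WT.

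**Figure D3:**
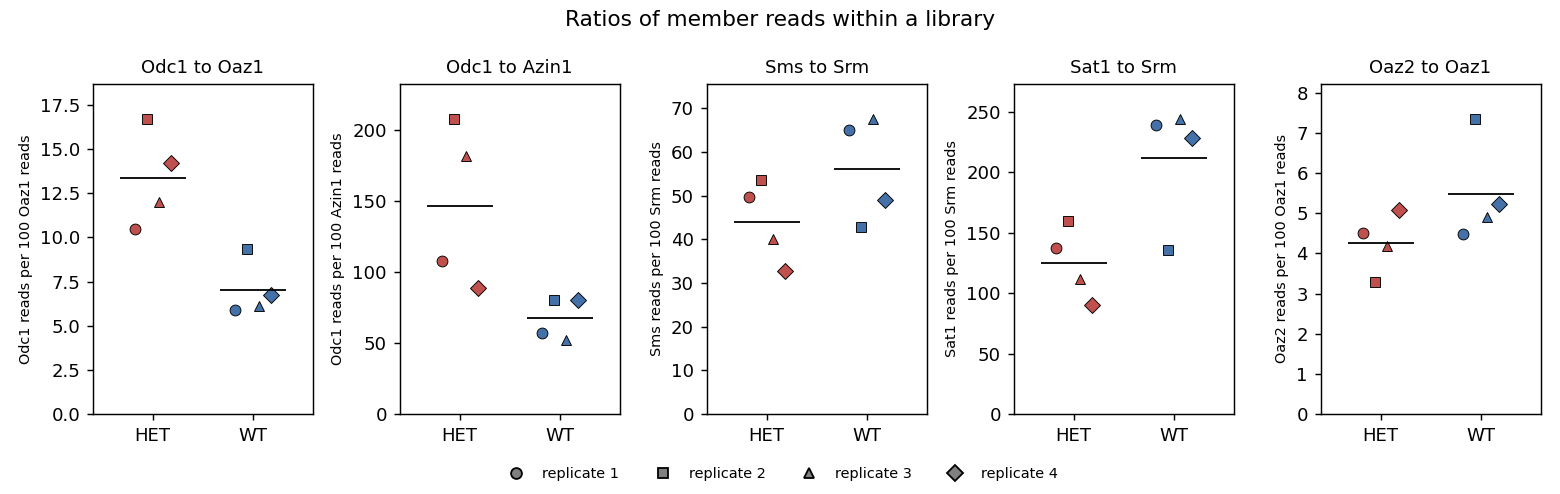
Reads of 1 gene per 100 reads of another in the same library (vertical axes, starting at 0) for 5 pairs; symbols mark the replicate number and lines the mean of 4 libraries. Odc1 per 100 reads of Oaz1 is 10.5 to 16.7 in HET and 5.89 to 9.35 in WT, and in the pairs Sms to Srm, Sat1 to Srm and Oaz2 to Oaz1 the groups overlap.

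Levels were then compared between the genes, as CPM per kilobase of exons of the longest protein-coding transcript. Oaz1 was highest, at 729 ± 40.9 CPM per kilobase for HET against 706 ± 51.2 for WT (SD, n = 4 each). Sat1 followed at 241 ± 39.8 in HET and 270 ± 8.10 in WT, Srm at 173 ± 35.8 and 117 ± 35.5, and Odc1 at 47.3 ± 10.01 and 24.3 ± 6.83 CPM per kilobase (SD, n = 4 in each group). Oaz1 lay above Sat1 with no overlap of the 8 libraries, and Srm lay above Odc1 with no overlap. Sat1 was above Srm within each of the 8 libraries although their ranges overlapped.

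The remaining members formed a low group whose neighbours all overlapped. Sms averaged 26.6 ± 3.39 CPM per kilobase for HET against 22.8 ± 3.75 for WT (SD, n = 4 each), and Odc1 exceeded it in 6 of 8 libraries. Oaz2 stood at 18.0 ± 2.78 in HET and 22.7 ± 6.51 in WT, Amd1 at 17.7 ± 4.49 and 15.5 ± 3.09, and Azin1 at 15.9 ± 5.85 and 16.2 ± 2.24 CPM per kilobase (SD, n = 4 in each group). Amd1 and Azin1 exchanged places, with Amd1 above in 4 of 8 libraries. From the highest to the lowest member, the mean level over 8 libraries differed 44.6-fold. The deposited TPM values gave the same order for the first 4 genes and another for the rest (Azin1, Amd1, Sms, Oaz2), since they divide by a length that includes introns.

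**Figure D4:**
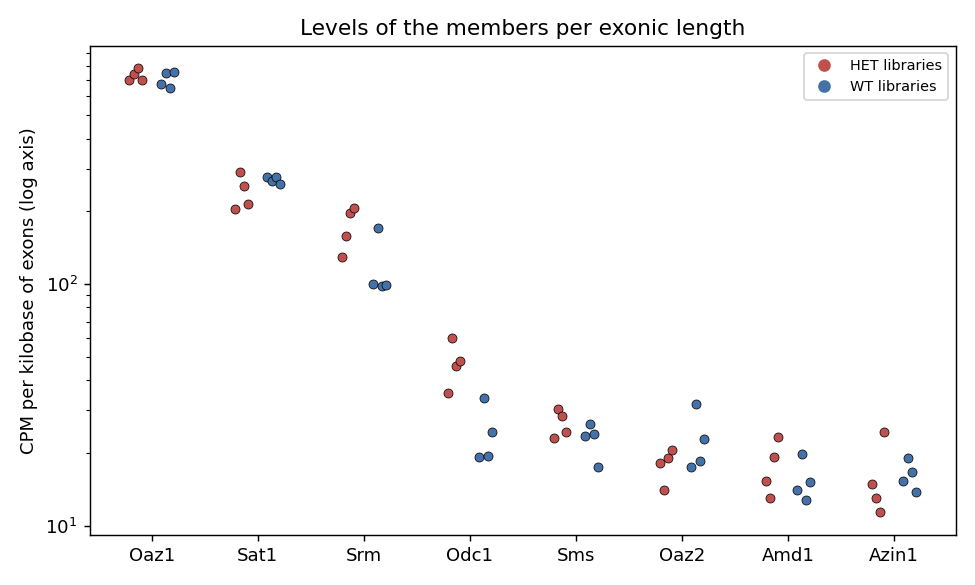
Level of each gene in each library as CPM per kilobase of exons (vertical log axis), with HET and WT libraries side by side, ordered by mean. Oaz1 at 650.5 to 782.5 stands clear of the rest, and the genes from Sms to Azin1 lie between 11.35 and 31.86.

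Some libraries were high or low for several members at once. WT replicate 2 was the highest WT library for 6 of the 8 genes (Odc1, Oaz2, Azin1, Amd1, Srm and Sms) and for 26.6% of all genes tested. HET replicate 4 was the highest HET library for 4 of the 8 and for 25.7% of all genes tested. HET replicate 1, the deepest library, was the highest HET library for 0 of the 8 and for 25.4% of all genes tested. It was the lowest HET library for 5 of the 8, and the matching share over all genes was not counted. WT replicate 2 was also the library with the most myeloid marker reads (463 CPM), whose part in these values was not tested. HET replicate 1 stood apart in markers of antibody-secreting cells, which summed to 2037 CPM there and to 219.5 to 513.6 CPM in the other libraries. For Odc1, leaving out HET replicate 1 gave a log2 fold change of 1.08 and leaving out WT replicate 2 gave 1.17, against 0.96 with all libraries. Within groups, the coefficient of variation of CPM was lowest for Oaz1 in HET (5.61%) and for Sat1 in WT (3.0%), where Oaz1 followed at 7.25%. It was highest for Azin1 in HET (36.7%) and for Srm in WT (30.3%). The biological coefficient of variation fitted by edgeR was 0.21 for Odc1, 0.21 for Srm and 0.13 for Oaz1, beside trend values of 0.19, 0.18 and 0.17 at their levels.

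Markers of cycling cells were set beside Odc1, because polyamine synthesis is known to accompany division. The summed level of 6 markers (Mki67, Top2a, Pcna, Mcm5, Ccnb1 and Ccnb2), all read in every library, was 560.6, 551.8, 644.2 and 685.7 CPM in HET replicates 1 to 4 and 573, 375.7, 460.9 and 294.9 CPM in WT replicates 1 to 4. HET was higher apart from WT replicate 1, which lay above HET replicates 1 and 2. WT replicate 1 had the lowest Odc1 level of all libraries (42.6 CPM), and WT replicate 2, with the highest Odc1 level in WT, had a marker sum of 375.7 CPM. All 6 markers had a fitted log2 fold change above 0 (median 0.52), beside 49.9% of all genes tested. In edgeR 0 of 6 were called, beside 0.0235% of all genes tested. At an unadjusted p under 0.05 in edgeR 2 passed (Pcna and Ccnb2), beside 7.22%. DESeq2 called 1 (Ccnb2), beside 0.656%. Ccnb2 was read at 41.8 to 90.2 CPM in HET and 20.6 to 27.2 CPM in WT, without overlap. Its log2 fold change was 1.53 ± 0.26 (SE; edgeR adjusted p = 0.087), and the ranges of the other markers overlapped. The part of cycling cells, and that of the lower B cell marker sum in HET, in the Odc1 difference was not tested.

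The rest of the pathway was covered by 30 further genes, of which 26 were in the count table and 19 could be tested. In edgeR 0 of the 19 were called over all genes (12 had a log2 fold change above 0 and 7 below). At an unadjusted p under 0.05 in edgeR there was 1 in each direction, beside 3.34% of all genes tested with HET higher and 3.88% with HET lower. DESeq2 called 0, beside 0.656%. Their median log2 fold change was 0.01. The groups did not overlap in 3 of the 19, Slc7a1 and Dohh with HET above and Mat2b with HET below, beside 4.61% of all genes tested.

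Of the genes that carry precursors and polyamines across membranes (9 listed, 4 tested), Slc7a1 and Atp13a2 had the lowest unadjusted p. Slc7a1, a carrier of cationic amino acids such as arginine and ornithine, was read at 25.0, 30.6, 31.0 and 31.5 CPM in HET and at 22.9, 17.2, 10.7 and 17.5 CPM in WT. All HET libraries lay above all WT libraries, with a log2 fold change of 0.79 ± 0.26 (SE; edgeR adjusted p = 0.554). Atp13a2, a lysosomal polyamine exporter, averaged 58.7 ± 12.3 CPM for HET against 79.3 ± 8.36 CPM for WT (SD, n = 4 each), a log2 fold change of -0.43 ± 0.17 (SE; edgeR adjusted p = 0.612). Slc3a2, the heavy chain of amino acid exchangers, averaged 149 ± 26.2 and 171 ± 42.7 CPM (SD, n = 4 each), with a log2 fold change of -0.20 ± 0.17 (SE; edgeR adjusted p = 0.851). It ran from -0.318 without HET replicate 4 to -0.00836 without WT replicate 2, and was -0.124 without HET replicate 2. None of these passed the adjusted threshold.

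Of the genes that supply and recycle methionine and ornithine (11 listed, 9 tested), 0 were called in edgeR or DESeq2 and 0 passed an unadjusted p of 0.05 in edgeR, with 8 log2 fold changes above 0 and a median of 0.07. Mat2a, which makes S-adenosylmethionine, averaged 288.5 ± 5.79 CPM for HET against 287 ± 32.5 CPM for WT (SD, n = 4 each), and its log2 fold change of 0.01 (SE 0.10) changed sign on the TPM scale. Mat2b, its regulatory subunit, was read at 106.6 to 124.2 CPM in HET and 132.1 to 135.7 CPM in WT, which did not overlap, with a log2 fold change of -0.20 ± 0.11 (SE; edgeR adjusted p = 0.738). Mri1, of the methionine salvage pathway that recycles the by-product of spermidine and spermine synthesis, had a log2 fold change of 0.01 ± 0.16 (SE), which also changed sign on the TPM scale. Arg1 held 1 to 4 reads in each HET library and 0 in each WT library, at or near the floor of 3 reads. Agmat held 4 reads in HET replicate 3 and 0 elsewhere.

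Spermidine is also the source of hypusine, a modification found on the translation factor eIF5A. Its gene Eif5a was abundant, at 1350 ± 198 CPM for HET against 1186 ± 166 CPM for WT (SD, n = 4 each), with a log2 fold change of 0.19 ± 0.11 (SE; edgeR adjusted p = 0.783). Leaving out HET replicate 4 gave 0.107, and leaving out WT replicate 3 gave 0.114. Leaving out HET replicate 1 gave 0.28, and leaving out WT replicate 2 gave 0.261. In 2 of the 16 alternative settings, both in edgeR, the unadjusted p of Eif5a was under 0.05. Dhps, which starts the modification, averaged 74.3 ± 14.9 and 72.8 ± 7.20 CPM (SD, n = 4 each), and its log2 fold change of 0.03 (SE 0.16) changed sign on the TPM scale. Dohh, which completes it, was read at 10.6 to 14.6 CPM in HET and 8.98 to 9.97 CPM in WT. Its ranges did not overlap, with a log2 fold change of 0.41 ± 0.30 (SE; edgeR adjusted p = 0.818).

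Minor family members and oxidases were rare. Oaz3, described as a testis antizyme, averaged 11.4 ± 2.96 CPM for HET against 12.8 ± 2.39 CPM for WT (SD, n = 4 each). Paox, a polyamine oxidase, averaged 6.92 ± 3.88 and 8.40 ± 2.14 CPM (SD, n = 4 each), with a log2 fold change of -0.29 ± 0.44 (SE), which ran from -0.736 without HET replicate 3 to -0.0749 without HET replicate 2 and was -0.122 without WT replicate 2. Smox, spermine oxidase, held 35 reads in WT replicate 4 and 0 in each of the other libraries. Azin2 held at most 7 reads and Amd2 at most 11 reads in any library. Reads of near-identical copies were few, with Oaz1-ps at 23 to 87 reads (0.415% to 0.929% of the reads of Oaz1 and its copy together) and Sms-ps at 4 to 8 reads. How reads with several alignments were treated was not stated.

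Myc, whose product drives Odc1 in many growing cells, was read at 218.7, 225.5, 230.1 and 288.1 CPM in HET and at 229.7, 181.3, 119.3 and 234.7 CPM in WT. The groups overlapped, and the log2 fold change was 0.33 ± 0.18 (SE; edgeR adjusted p = 0.74). Without WT replicate 3, the library with the lowest Myc level, it was 0.167, and without WT replicate 4 it was 0.444. In 3 of the 16 alternative settings, all in edgeR, the unadjusted p of Myc was under 0.05. WT replicate 3 had an Odc1 level of 42.8 CPM and WT replicate 1, with a Myc level within the HET range, had an Odc1 level of 42.6 CPM, and these were the lowest Odc1 levels of all libraries. The part of Myc in the Odc1 difference was not tested. The MYC partner Max and the antagonists Mxd1, Mxd4, Mxi1 and Mnt had log2 fold changes of -0.29, -0.33, -0.11, 0.10 and -0.58 with SEs of 0.23 to 0.53, and 0 of the 6 tested genes of this network passed an unadjusted p of 0.05 in edgeR or were called by DESeq2. Mxi1, Mxd1 and Mxd4 changed sign when single libraries were left out. Mnt ran from -0.731 without WT replicate 4 to -0.371 without WT replicate 3. Max ran from -0.516 without HET replicate 3 to -0.129 without HET replicate 4.

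The genes whose levels ran most like Odc1 over the 8 libraries were found by the root-mean-square distance between centred log2(CPM + 1) profiles, among 7239 genes with a mean of at least 4 on that scale. The nearest were Dctpp1 (0.23), Ddx56 (0.24), Mettl9 (0.24), Batf (0.25) and Mrpl20 (0.26), where the median gene lay at 0.62. Dctpp1 was read at 45.1 to 69.2 CPM in HET and 26.7 to 43.4 CPM in WT, without overlap. Batf, a transcription factor of activated lymphocytes, was read at 70.4 to 112.2 CPM in HET and 40.4 to 71.8 CPM in WT, with overlap. Among members, Srm ranked 18 of 7239 (distance 0.30), Sms 596, Amd1 1267 and Oaz1 1495. Sat1, Azin1 and Oaz2 ranked 3814, 4438 and 5189. These ranks rest on 8 libraries from 2 pools and on the group difference itself.

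**Figure D5:**
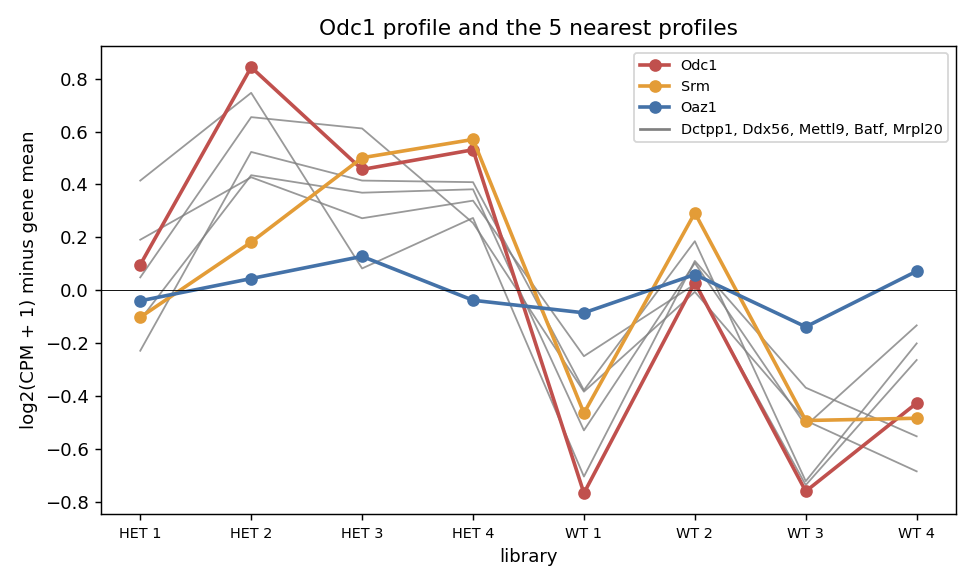
Centred log2(CPM + 1) (vertical axis) in each of the 8 libraries for Odc1, Srm, Oaz1 and, in grey, the 5 genes nearest to Odc1. Odc1 and Srm are both lowest in WT replicates 1, 3 and 4, WT replicate 2 stands above the other WT libraries for both, and Oaz1 stays near 0.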

How the data were processed

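RNA was measured in 8 libraries of about 200 sorted cells each, made by an adapted SMART-Seq2 protocol without molecular identifiers. The authors used FastQC for read quality, HISAT2 2.2.1 for alignment to GRCm38, Samtools for sorting and HTSeq for counting per gene. The annotation release, strand setting and treatment of multiply aligned reads are not given in the sources used here. The deposited count table holds raw read counts, and the deposited TPM table holds the same counts divided by 1 length per gene. That length was checked in 1680 genes with 1 annotated transcript and exons under 50% of the span. In 98.3% of them it followed the genomic span, introns included, within 1%. All members have several annotated transcripts. In 97.6% of such genes the length followed the mean span of the transcripts, introns included, within 1%. Levels of genes were therefore compared as CPM per kilobase of exons (GENCODE M21) and ratios as ratios of reads, both chosen after seeing the data.

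Counts were fitted in R 4.3.3 with edgeR 4.0.16 (filterByExpr, 12744 of 24259 genes with 99.7% of counts; TMM; robust quasi-likelihood F-test, group only; Benjamini-Hochberg, threshold 0.05). SEs were obtained from the log2 fold change and the F statistic (its absolute value over the root of F). Alternatives were DESeq2 1.42.0, scaling by RLE, testing every gene, testing genes that average 50 counts or more, a block for the replicate number, limma 3.58.1 (limma-trend) on log2(TPM + 1) and log2(TPM + 0.1), immunoglobulin and ribosomal RNA genes left out, and each library left out. The steps were tested on simulated data. Depth limits apply to counting error only. Libraries of a group differed by more than counting error (chi-square per gene of 13 to 32.4), and none was a duplicate.

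All members were named. Of other pathway genes, those called, the 3 with the highest mean deposited TPM in each list and the 2 with the largest fold change were named. Since that TPM divides by a length that includes introns, these 3 need not be the most abundant per exonic length. All upstream genes, the 5 nearest profiles to Odc1 and copies of members were also named. Others (Fos, Jun, Ppp1r15a, Gm49077, Smox, Arg1, Agmat, Azin2 and Lyz2) were named after their values were seen, and so were the values of Cd74 and Ccnb2 and the calls of Pcna. The members and lists were chosen with earlier results of these data known.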

Additional observations from a re-analysis of the deposited data

Results flagged for a closer look

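In 50 groups of 4 libraries (the 8 members and 17 other named genes, in HET and in WT), 4 held a library whose gap to the nearest of the others exceeded the 95% critical value of Dixon's test as a share of the group's range. Chance gives about 1 in 20 groups. Srm stood at 228 CPM in WT replicate 2, where the remaining WT libraries held 132 to 134 CPM (a gap of 0.973 of the range). Slc3a2 stood at 235 CPM in the same library and 144 to 156 CPM in the rest (0.861), and its log2 fold change was -0.20 with and -0.0084 without that library. Slc7a1 was lowest in HET replicate 1, at 25 CPM with the rest at 30.6 to 31.5 CPM (0.851). Myc was highest in HET replicate 4, at 288 CPM with the rest at 219 to 230 CPM (0.835).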

How the results depend on the processing

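Odc1 kept its direction in all 16 alternatives, with log2 fold changes from 0.833 to 1.17, and so did Srm (0.467 to 0.798). Odc1 was called by DESeq2 (0.965) and without a filter on low counts (0.956), where 1 of the 8 members was called. In the other 14 alternatives 0 of the 8 were called. Of the 8, 2 or 3 had an unadjusted p under 0.05 there, beside 778 to 1079 of the 9815 to 13398 genes tested. Of all genes, 77 were called by DESeq2, 38 without a filter, 7 at a mean of at least 50 counts, 1 by limma-trend on log2(TPM + 0.1) and 1 to 6 when a library was left out, the 6 without WT replicate 1, against 3 in the chosen fit. With limma-trend on log2(TPM + 1), 0 were called (982 at an unadjusted p under 0.05). With the replicate number as a block, 0 genes were called in edgeR (912 at an unadjusted p under 0.05). The numbers did not pair the libraries, since same-numbered libraries had correlations of deviations of -0.0442 to 0.0244 and 1 of 4 HET libraries was best matched by its own number.

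Some directions changed, and the cause was not tested. Among these genes Mxd1 was furthest from 0 in the chosen fit, at -0.33, and was at 0.0788 without WT replicate 3. The reversed value furthest from 0 was that of Mxi1, at 0.10 in the chosen fit and -0.513 without HET replicate 3. On both TPM scales Oaz1 was at -0.00311, Mat2a at -0.0356 and -0.0357, Mri1 at -0.0606 and -0.0618, and Dhps at -0.0378 and -0.0382. Over all genes the median log2 fold change on these scales was -0.033 and -0.046, against -0.0014 in the chosen fit. There 44.2% and 44.5% of genes lay above 0, against 49.9%. Mxi1 was at -0.0959 on log2(TPM + 0.1), and with the replicate block Mri1 was at -0.011 and Mxi1 at -0.11. With a library left out, ranges crossed 0 for Azin1 (-0.304 to 0.107), Mat2a (-0.0488 to 0.0735), Mri1 (-0.146 to 0.0994), Dhps (-0.0573 to 0.136), Mxi1 (-0.513 to 0.344), Mxd1 (-0.56 to 0.0788) and Mxd4 (-0.406 to 0.054). In all, 122 of 128 values of members and 251 of 271 of other named genes kept their sign. Of the 5 nearest profiles to Odc1, 3 remained among the nearest when a mean of at least 6 was required.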
